A study of Canis lupus familiaris with 4 samples.

Results

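The nuclear genes of the mitochondrial carriers and of the mitochondrial ribosomal proteins were compared between mammary ductal carcinoma of dogs and non-tumor mammary tissue taken beside it. The members were all genes of the count tables whose symbol starts with SLC25A, MRPL or MRPS followed by a digit. They numbered 80 of 11277 genes, namely 31 carriers and 49 ribosomal proteins (31 MRPL and 18 MRPS genes). Tissue came from the mastectomies of 6 bitches that had not been neutered, were of different breeds and were aged 5 to 14 years. Each of the 4 total RNA libraries was made from the pooled RNA of 3 dogs, with 2 libraries of carcinoma (T1 and T2) and 2 of non-tumor tissue (C1 and C2). The tumors were spontaneous and early-stage, no treatment or allele set the groups apart, and the study describes the non-tumor samples as paired with the tumors, the pool number being read here as the pairing (T1 with C1, T2 with C2). Variation between single dogs is therefore not seen. The data are of bulk tissue, in which fewer cells of a type and less RNA per cell cannot be told apart.

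Most mitochondrial carriers sit in the inner membrane, which is otherwise closed to most metabolites, and move nucleotides, phosphate, carboxylates, amino acids, cofactors and iron between the cytosol and the matrix. They are encoded in the nucleus, made in the cytosol and imported. The mitochondrial ribosome is built from RNAs of the mitochondrial genome and from proteins of the nuclear genome, the MRPL proteins being those named for the large subunit and the MRPS proteins those named for the small subunit. It makes the few respiratory chain and ATP synthase subunits that the mitochondrial genome encodes.

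SLC25A13 was the member that differed between the tissues by the test. It encodes citrin, the carrier that exports aspartate from mitochondria in exchange for glutamate and is part of the malate-aspartate shuttle. The level of SLC25A13 was 225 CPM (counts scaled to library size, with TMM factors) in T1 and 210 CPM in T2, against 111 CPM in C1 and 110 CPM in C2. Both carcinoma libraries lay above both non-tumor libraries, and the libraries of a tissue lay close together. Carcinoma averaged 217 ± 10.5 CPM and non-tumor tissue 111 ± 0.641 CPM (SD, n = 2 each). SLC25A13 rose by 0.97 on the log2 scale (standard error 0.11, 95% interval 0.70 to 1.25, edgeR quasi-likelihood test, adjusted p = 0.00653). The log2 ratio was 1.01 for T1 over C1 and 0.93 for T2 over C2. The estimate fell just short of a log2 fold change of 1, the fold that the study asked for, and its interval includes that size.

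Epithelial markers were set beside this rise. The 4 measured of 6 markers of luminal epithelium summed to 1025 and 1097 CPM in the carcinoma libraries. They summed to 1096 and 981 CPM in the non-tumor libraries. By the edgeR test 0 of them passed (0 also at an unadjusted p under 0.05), against 13.9% of all genes. With the pool number added to the fit as a replicate block, 2 passed as higher and 1 as lower, against 64.1% of all genes passing. The 4 measured of 6 markers of basal epithelium and myoepithelium summed to 809 and 1107 CPM in carcinoma and to 544 and 675 CPM in non-tumor tissue, and 1 passed, the smooth muscle myosin gene MYH11, as higher (log2 fold change 0.66). The markers of this list went both ways, with log2 fold changes of 1.13 for the keratin gene KRT5 (adjusted p = 0.0884), −0.42 for the transcription factor gene TP63 (adjusted p = 0.0608) and −0.56 for the actin gene ACTA2 (adjusted p = 0.528) by edgeR. With the replicate block all 4 passed, 2 as higher and 2 as lower. No marker of these lists was at 0 counts. Of the 4 measured fibroblast markers 2 passed as lower, and both carcinoma libraries lay below both non-tumor libraries for all 4. Of the 4 measured endothelial markers 3 passed as lower. For all genes the share passing as lower was 6.96%, and 28.0% had both carcinoma libraries below both non-tumor libraries. The part of cell type content in the SLC25A13 values was not tested.

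By the rule used for calls, an adjusted p under 0.05 (Benjamini-Hochberg over all genes tested) with a log2 fold change of 1 or more in size, 0 of the 80 members were called by edgeR, against 9.86% of all genes (4.62% higher and 5.24% lower in carcinoma). With any fold 1 member passed, SLC25A13, as higher, against 13.9% of all genes (6.93% higher and 6.96% lower). DESeq2 passed the same member with any fold and called 0, against 16.3% of all genes passed with any fold. At an unadjusted p under 0.05, 6 members passed in edgeR (2 carriers higher and 2 lower, and 2 ribosomal proteins lower), against 28.5% of all genes. No member, by estimate alone, had an absolute log2 fold change of 1 or more, a size that 14.2% of all genes reached. An exact permutation test of 2 libraries against 2 has p = 0.333 (two-sided) as its smallest value, so each call depends on the spread edgeR estimates over all genes.

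The low number of calls went with small estimates. The median absolute log2 fold change was 0.27 for the carriers and 0.16 for the ribosomal proteins, against 0.34 for all genes, and 90% of the members lay under 0.45, against 1.27 for all genes. The median standard error was 0.25 for the members and 0.22 for all genes. The members had a median of 51 counts in T2 and 68.5 in C2, the shallow libraries, and all genes one of 106 and 129, so the members were measured with fewer counts than the typical gene. The 95% interval of the log2 fold change lay within −1 to 1 for 53 of the 80 members (19 carriers and 34 ribosomal proteins), against 52.2% of all genes. For SLC25A6, SLC25A42, MRPL27, MRPL28 and MRPL51 the interval passed both bounds, so it held both a doubling and a halving. Direction is undecided for every member whose interval includes 0. The interval left out 0 only for the 6 members with an unadjusted p under 0.05 by edgeR. A member that did not pass is not shown to be unchanged.

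**Figure D1:**
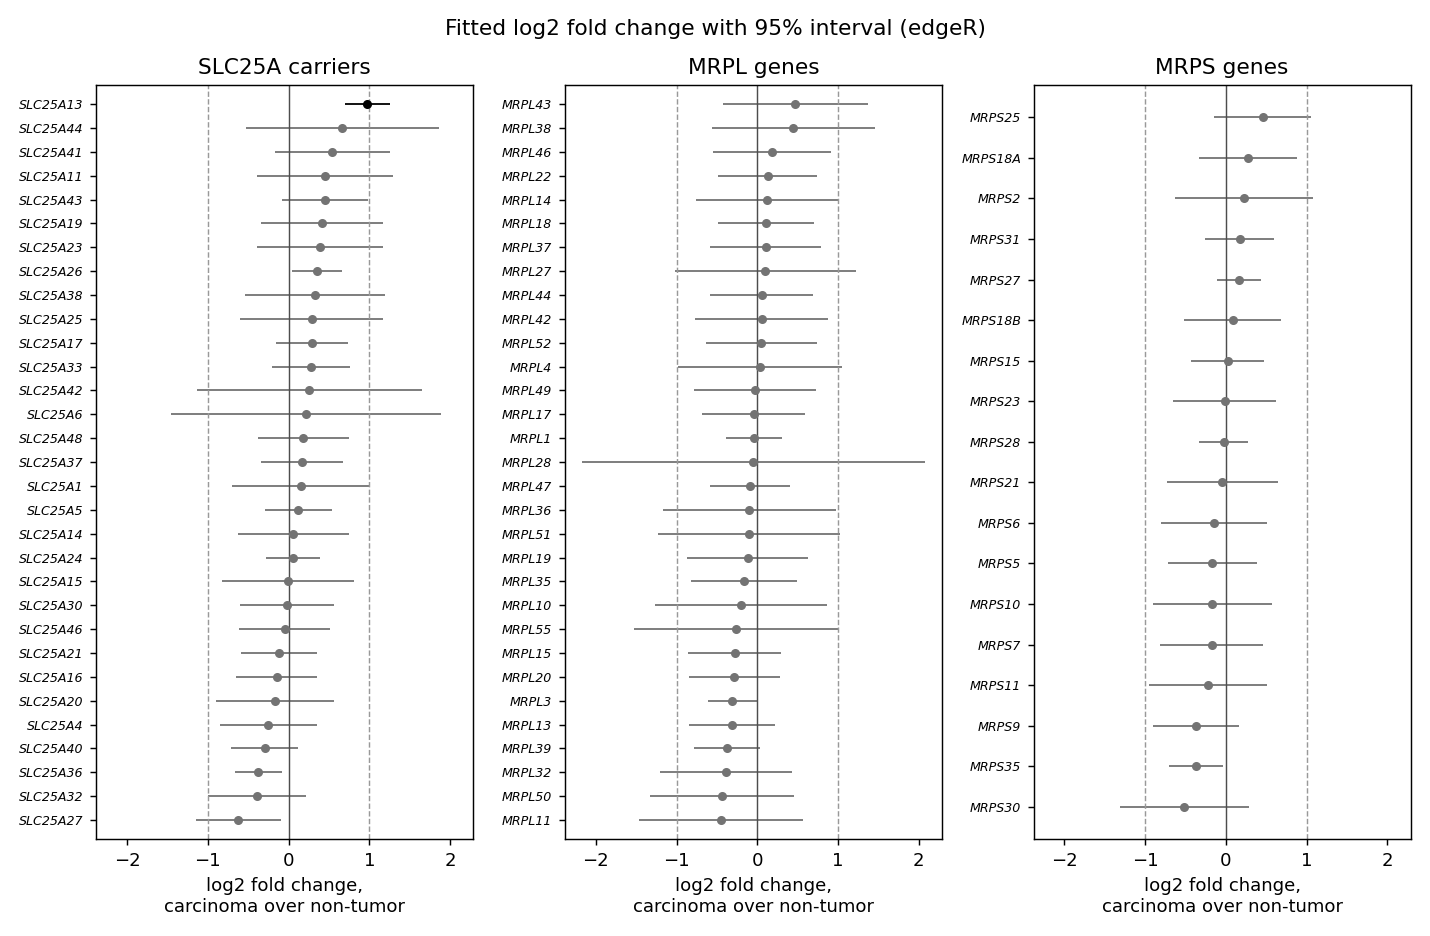
Fitted log2 fold change of carcinoma over non-tumor tissue (x axis) for each of the 31 carriers, 31 MRPL and 18 MRPS genes, with bars for the 95% interval from the edgeR fit and dashed lines at −1 and 1. SLC25A13 (black, adjusted p = 0.00653) lies at 0.97 and every other member (gray) missed an adjusted p of 0.05.

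When the pool number was added as a replicate block, which compares carcinoma with non-tumor tissue within a pool number, 32 of 80 members passed with any fold, 13 carriers higher and 5 lower, and 4 ribosomal proteins higher and 10 lower. In that fit 64.1% of all genes passed, so the members passed at a lower rate than the table as a whole. At a log2 fold change of 1 or more 0 members were called, against 13.9% of all genes. The block leaves 1 residual degree of freedom, and the values below name the members it adds only as values.

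The carriers of adenine nucleotides and phosphate were SLC25A4, SLC25A5 and SLC25A6, which exchange ADP for ATP, and SLC25A23, SLC25A24, SLC25A25 and SLC25A41, which carry ATP-Mg in exchange for phosphate. None of the 7 measured of 9 listed passed by edgeR, and their median log2 fold change was 0.22. With the block SLC25A23 (adjusted p = 0.0121) and SLC25A25 (adjusted p = 0.0442) passed as higher. SLC25A4, the exchanger typical of heart and skeletal muscle, had 24.5 and 34.2 CPM in carcinoma, against 31.7 and 37.6 CPM in non-tumor tissue. The groups overlapped, and the estimate on the log2 scale was −0.25 ± 0.24 (standard error), with an adjusted p of 0.533 by edgeR. With the block its adjusted p was 0.00528. The non-tumor libraries held striated muscle RNA that carcinoma largely lacked, since the 7 measured of 10 muscle markers summed to 21.8 and 28.0 CPM in carcinoma and to 1844 and 2989 CPM in non-tumor tissue. All 7 passed as lower, against 6.96% of all genes. MB, TNNT3 and MYLPF, which encode myoglobin, a fast troponin and a fast myosin light chain, had no count in T2. The part of muscle in the SLC25A4 values was not tested.

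SLC25A5, the exchanger of many dividing cells, had 36.7 and 39.6 CPM in carcinoma and 33.2 and 36.9 CPM in non-tumor tissue, overlapping ranges with a log2 fold change of 0.12 (95% interval −0.29 to 0.54). SLC25A6, a close paralog, had 35.5 CPM in T1 and 114 CPM in T2, against 39.4 CPM in C1 and 87.2 CPM in C2. It was high in pool 2 of both tissues, and its interval ran from −1.45 to 1.89. The coding sequences of these 3 genes are closely related, so the counting could have split reads between them. SLC25A41 had 8.84 and 8.92 CPM in carcinoma, against 6.50 and 5.56 CPM in non-tumor tissue, without overlap. Its log2 fold change was 0.54 (standard error 0.28, adjusted p = 0.275 by edgeR and 0.0129 with the block).

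The amino acid carriers were measured through 4 of 9 listed genes, of which SLC25A13 passed. SLC25A44, a carrier of branched-chain amino acids, had the next largest estimate among all members, 0.66 (standard error 0.47). Its adjusted p was 0.412 by edgeR and 0.00227 with the block. Its level was 7.50 and 14.3 CPM in carcinoma and 5.11 and 8.58 CPM in non-tumor tissue, ranges that overlap across pools, although each carcinoma library exceeded the non-tumor library of its own pool. SLC25A38 is a glycine carrier needed for heme synthesis, and SLC25A15 is the ornithine carrier. Their log2 fold changes were 0.33 for SLC25A38 and −0.0097 for SLC25A15, with overlapping groups. With the block SLC25A38 passed as higher (adjusted p = 0.0456) and SLC25A15 did not pass.

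The pyrimidine nucleotide carrier SLC25A36 had the smallest p after SLC25A13. Its level was 252 and 236 CPM in carcinoma, against 331 and 302 CPM in non-tumor tissue. The carcinoma libraries lay below both non-tumor libraries, with a log2 fold change of −0.37 (standard error 0.11, 95% interval −0.67 to −0.08), but the adjusted p was 0.104 by edgeR (1.06e-09 with the block). SLC25A33, the other pyrimidine nucleotide carrier, had 24.7 and 27.4 CPM in carcinoma and 21.1 and 21.8 CPM in non-tumor tissue. It differed without overlap and in the opposite direction (log2 fold change 0.27). Its adjusted p was 0.403 by edgeR and 0.0418 with the block. SLC25A37, the iron importer mitoferrin, had a log2 fold change of 0.17 (adjusted p = 0.623 by edgeR and 0.0116 with the block).

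SLC25A27, an uncoupling-type carrier known mainly from neural tissue, had the lowest estimate of all members. It had 21.4 and 17.2 CPM in carcinoma, against 31.1 and 29.0 CPM in non-tumor tissue, without overlap. The log2 fold change was −0.62 (standard error 0.21, 95% interval −1.15 to −0.10), and the adjusted p of 0.124 by edgeR missed the threshold (8.22e-07 with the block).

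Cofactor carriers went both ways. SLC25A26, which imports S-adenosylmethionine, the methyl donor for mitochondrial RNA and protein, had 66.4 and 71.7 CPM in carcinoma and 53.2 and 55.2 CPM in non-tumor tissue (log2 fold change 0.35, standard error 0.12, adjusted p = 0.141). SLC25A32, which carries folates and flavin, had 11 and 10.1 CPM in carcinoma and 13.7 and 14.1 CPM in non-tumor tissue (log2 fold change −0.39, standard error 0.24, adjusted p = 0.345). Neither gene's groups overlapped. In the block fit the adjusted p was 5.41e-05 for SLC25A26 and 0.0245 for SLC25A32. SLC25A40, a glutathione carrier, had 49.4 and 42.2 CPM in carcinoma and 60.9 and 51.9 CPM in non-tumor tissue, again without overlap (log2 fold change −0.30). SLC25A17, a peroxisomal member of the family, had 38.3 and 33.0 CPM in carcinoma and 28.4 and 30.4 CPM in non-tumor tissue (log2 fold change 0.29). SLC25A43, a carrier without a settled substrate, had 27.1 and 22.6 CPM in carcinoma and 17.9 and 18.8 CPM in non-tumor tissue (log2 fold change 0.45, adjusted p = 0.230). The adjusted p with the block was 0.000709 for SLC25A40, 0.00101 for SLC25A17 and 2.01e-05 for SLC25A43. The 3 measured di- and tricarboxylate carriers were SLC25A1 for citrate, SLC25A11 for oxoglutarate and SLC25A21 for oxodicarboxylates. Their log2 fold changes were 0.15, 0.45 and −0.12, and none passed by edgeR. With the block SLC25A11 passed as higher (adjusted p = 0.0368).

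**Figure D2:**
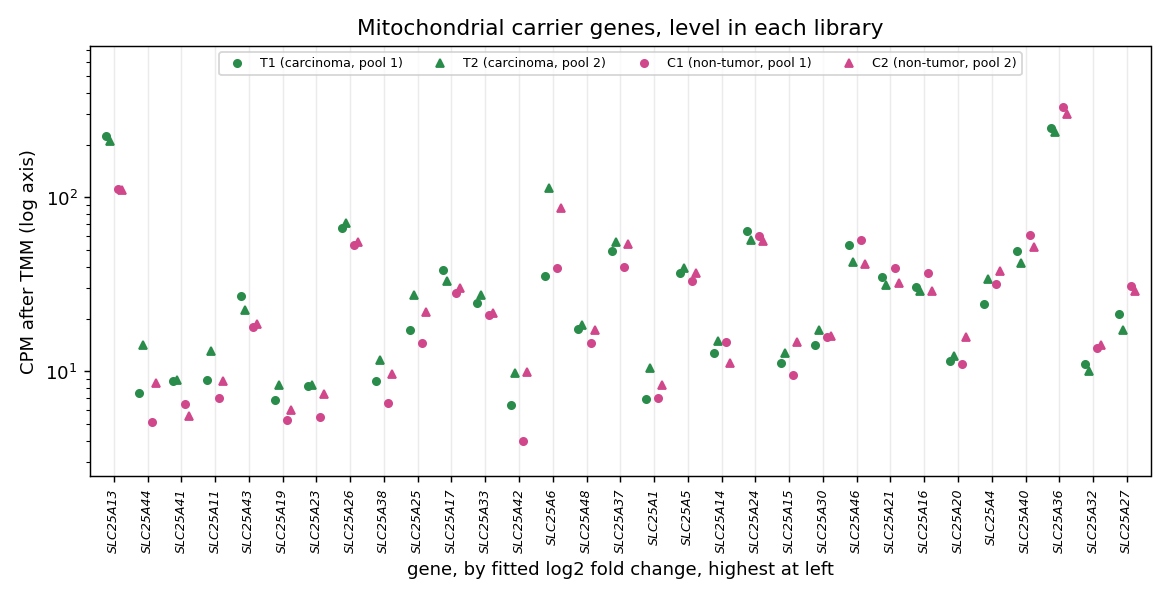
CPM after TMM (log axis) of the 31 carrier genes, ordered by fitted log2 fold change, with 1 symbol per library, carcinoma in green and non-tumor tissue in pink, circles for pool 1 and triangles for pool 2. SLC25A13 lies at 225 and 210 CPM in carcinoma, above 111 and 110 CPM in non-tumor tissue, while for 17 of the 31 genes the tissues overlap; levels are not divided by gene length, so heights of different genes are not compared.

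In the carriers as a class, 10 had both carcinoma libraries above both non-tumor libraries, 4 had both below and 17 overlapped. Among all genes 57.6% did not overlap, 29.6% with carcinoma above and 28.0% below. The median log2 fold change was 0.17 for the carriers and 0.031 for all genes, with 20 carriers above 0 and 11 below. Without C1 the carrier median was −0.0075, against −0.015 for all genes in that fit. Within the pools it was 0.22 for T1 over C1 and 0.11 for T2 over C2, against 0.016 and 0.059 for all genes. Summed over the class, the level was 1190 and 1262 CPM in the carcinoma libraries, against 1133 and 1170 CPM in the non-tumor libraries. Without SLC25A13, left out after its values were seen, the sums were 966 and 1052 CPM in carcinoma and 1022 and 1060 CPM in non-tumor tissue. The sums depend on single genes of high CPM. SLC25A36, which was not left out, had 252 and 236 CPM in carcinoma, against 331 and 302 CPM in non-tumor tissue.

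The ribosomal proteins did not pass in either subunit, and their estimates ran from −0.51 (MRPS30) to 0.47 (MRPL43). Both carcinoma libraries lay above both non-tumor libraries for 5 of the 49 genes and below for 11, with 33 overlapping. For all genes the shares were 29.6% above and 28.0% below. The class summed to 1084 and 1092 CPM in carcinoma, against 1192 and 1115 CPM in non-tumor tissue, with carcinoma lower in each pool. The log2 ratio of these sums was −0.14 in pool 1 and −0.03 in pool 2. For the sum over all genes it was −0.11 in pool 1 and 0.044 in pool 2. Genes of high CPM weigh most in such sums. The median log2 fold change was −0.046, with 19 genes above 0 and 30 below, and it was −0.048 for the MRPL and −0.037 for the MRPS genes. By origin of the protein, the 19 measured large subunit proteins with bacterial relatives had a median of −0.12 and the 13 particular to mitochondria, MRPS30 among them, one of 0.049. The 12 small subunit proteins with bacterial relatives had a median of −0.095 and the 5 particular to mitochondria one of 0.16. MRPS18A was kept among the small subunit genes by name, although its protein sits in the large subunit of the mammalian ribosome. The 4 medians were not tested against each other.

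MRPS35 and MRPL3 had the smallest p of this class. MRPS35, a small subunit protein without a bacterial relative, had 71.9 and 70.8 CPM in carcinoma, against 99.6 and 83.9 CPM in non-tumor tissue. The carcinoma libraries were nearly alike and below both non-tumor libraries, and the estimate was −0.37 on the log2 scale (standard error 0.13), with an adjusted p of 0.145 by edgeR and 1.78e-07 with the block. MRPL3, a protein near the catalytic core of the large subunit, had 58.5 and 58.3 CPM in carcinoma and 75.1 and 69.3 CPM in non-tumor tissue, also without overlap. Its log2 fold change was −0.31 (standard error 0.12, adjusted p = 0.170 by edgeR and 4.73e-05 with the block).

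Other large subunit genes with carcinoma below included MRPL39, MRPL13 and MRPL20, which the naming rule chose. MRPL39 had 32.9 and 33.6 CPM in carcinoma and 46.0 and 40.1 CPM in non-tumor tissue (log2 fold change −0.38, adjusted p = 0.202). MRPL13 had 21.0 and 18.4 CPM in carcinoma and 26.5 and 22.5 CPM in non-tumor tissue (log2 fold change −0.31, adjusted p = 0.394). MRPL20 had 14.5 and 15.5 CPM in carcinoma, against 19.4 and 16.7 CPM in non-tumor tissue (log2 fold change −0.28, adjusted p = 0.454). None of the 3 passed without the block, and all passed with it. MRPS9, a small subunit protein with a bacterial relative, had 66.5 and 54.1 CPM in carcinoma and 90.6 and 65.1 CPM in non-tumor tissue. Its groups overlapped, although carcinoma was lower in each pool, and the estimate was −0.37 on the log2 scale (95% interval −0.90 to 0.16), with an adjusted p of 0.315 by edgeR and 6.52e-07 with the block. MRPS30, which despite its name is a large subunit protein in the mammalian ribosome, had 14.7 and 9.22 CPM in carcinoma, against 19.5 and 15.3 CPM in non-tumor tissue (log2 fold change −0.51, standard error 0.31, adjusted p = 0.346).

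MRPS25 and MRPS27, small subunit proteins, lay above in carcinoma. MRPS25 had 23.2 and 30.6 CPM in carcinoma, against 18.2 and 20.9 CPM in non-tumor tissue (log2 fold change 0.45, standard error 0.23, adjusted p = 0.276). MRPS27, a protein of the pentatricopeptide repeat family, had 80.9 and 83.9 CPM in carcinoma and 73.3 and 74.4 CPM in non-tumor tissue, separate groups with a log2 fold change of 0.16 (95% interval −0.12 to 0.43). MRPL43 and MRPL38, large subunit proteins, had estimates of 0.47 and 0.45 with overlapping groups. With the block the adjusted p was 0.00118 for MRPS25, 0.0575 for MRPS27, 0.0307 for MRPL43 and 0.0359 for MRPL38. MRPL43 overlaps TWNK, the gene of the mitochondrial DNA helicase, in RefSeq, and its deposited length is 5.93 times its RefSeq span, so its counts may hold reads of TWNK.

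MRPS28 and MRPL1 lay close to 0 with narrow intervals. MRPS28, a small subunit protein, had 109 and 97.5 CPM in carcinoma and 110 and 101 CPM in non-tumor tissue, with a log2 fold change of −0.029 (95% interval −0.33 to 0.28). MRPL1, a protein of the stalk near the exit site for tRNA, had 91.3 and 88.9 CPM in carcinoma and 102 and 83.7 CPM in non-tumor tissue, with a log2 fold change of −0.045 (95% interval −0.39 to 0.30). For both genes a doubling or halving lies outside the interval.

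**Figure D3:**
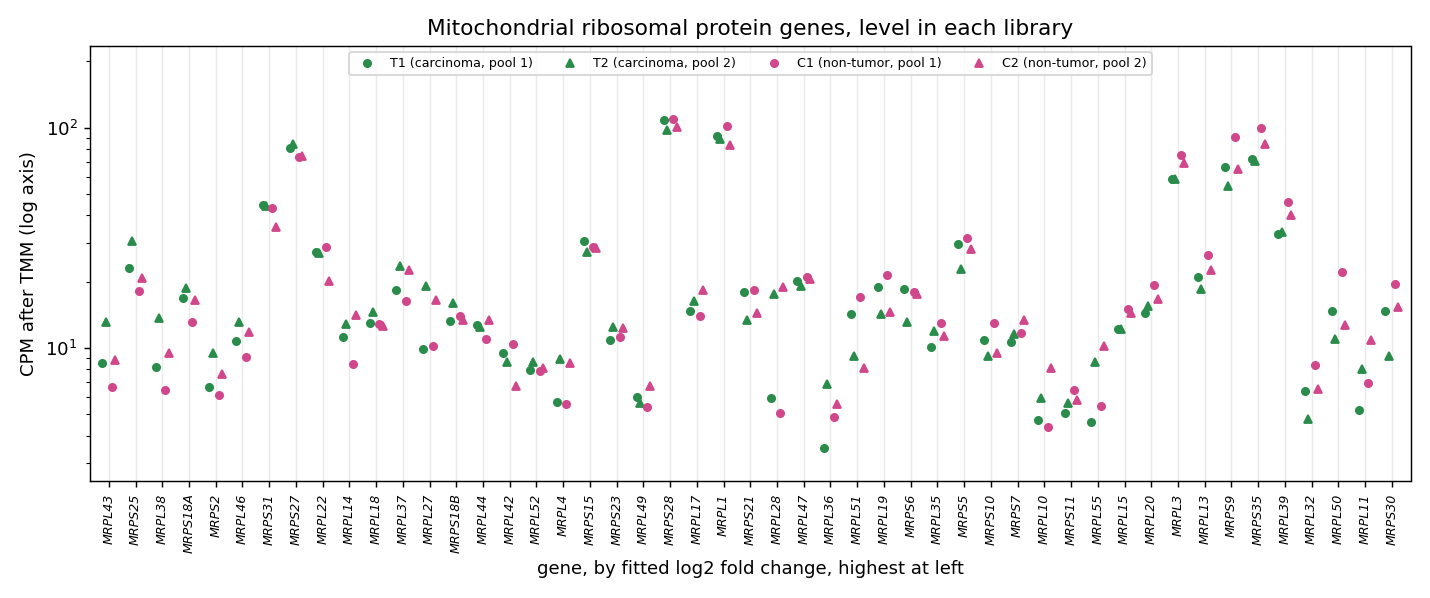
CPM after TMM (log axis) of the 49 mitochondrial ribosomal protein genes, ordered by fitted log2 fold change, with 1 symbol per library, carcinoma in green and non-tumor tissue in pink, circles for pool 1 and triangles for pool 2. The tissues overlap for 33 genes, and MRPL28 stands out with 17.5 and 19.0 CPM in pool 2 (T2 and C2) against 5.92 and 5.05 CPM in pool 1 (T1 and C1).

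Within the pools, the log2 ratio of carcinoma to non-tumor tissue had the same sign in both pools for 54 of 80 members, against 84.5% of all genes. Of the carriers 16 were above 0 in both pools, 6 below 0 in both and 9 had opposite signs. Of the ribosomal proteins 12 were above 0 in both, 20 below 0 in both and 17 had opposite signs. The Pearson correlation of the ratios of pool 1 and pool 2 was 0.61 across the 80 members and 0.93 across all genes, a description across genes of the same 4 libraries. The members' fold changes are also smaller than those of the table, and the part of this in the lower agreement was not tested.

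**Figure D4:**
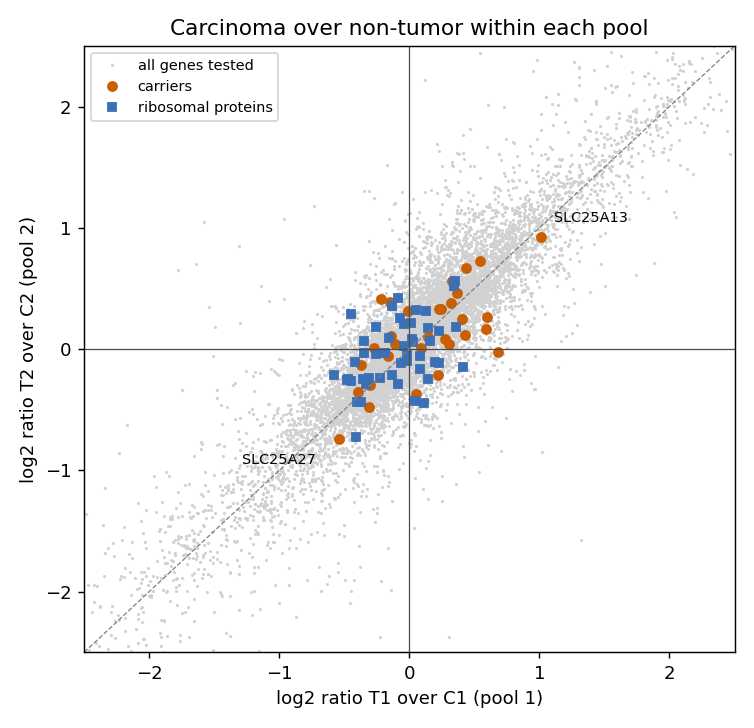
Log2 ratio of carcinoma to non-tumor tissue in pool 1 on the x axis (T1 over C1) and in pool 2 on the y axis (T2 over C2), for carriers (orange circles), ribosomal proteins (blue squares) and all genes tested (gray; those outside ±2.5 are not drawn). Members cluster around the origin, and SLC25A13 lies apart at 1.01 and 0.93.

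The pools differed more for some members than the tissues did. The log2 offset of pool 2 minus pool 1 was at least 1 in both tissues for 2 members, MRPL28 and SLC25A6, and at most −1 in both for 0 members, so 2.5% of members had such an offset, against 4.07% of all genes. MRPL28, a large subunit gene named after its values were seen, had an offset of 1.55 in carcinoma and 1.89 in non-tumor tissue. SLC25A6 had one of 1.68 in carcinoma and 1.14 in non-tumor tissue. Both are short genes, with deposited lengths of 1902 and 1903 bases. The 18 members under 5 kb had a median offset of 0.32 in carcinoma and 0.25 in non-tumor tissue, and the 31 members over 20 kb one of −0.038 in carcinoma and −0.091 in non-tumor tissue. All genes under 5 kb had a median offset of 0.14 in carcinoma and 0.12 in non-tumor tissue, and all genes over 20 kb one of −0.046 and −0.081. Across the 80 members the Spearman correlation of length with the offset was −0.39 in carcinoma and −0.28 in non-tumor tissue, against −0.20 in each tissue for all genes. These points share 4 libraries, and T2 and C2 hold far fewer counts than T1 and C1. The Spearman correlation of length with the fold change of carcinoma was 0.079 across members. The part of RNA quality, depth and the age of the dogs in the offsets was not tested.

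**Figure D5:**
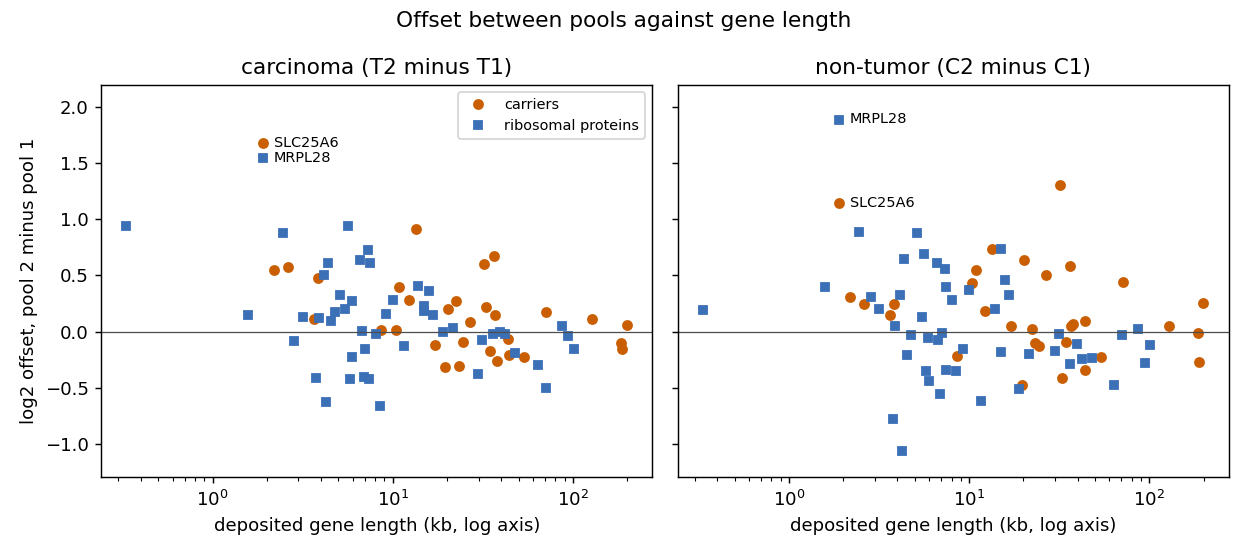
Log2 offset of pool 2 minus pool 1 (y axis) against deposited gene length in kb (log axis) for the 80 members, in carcinoma at left and in non-tumor tissue at right. MRPL28 (1.55 and 1.89) and SLC25A6 (1.68 and 1.14) have the offsets named in the text, and most genes over 20 kb lie near 0, with SLC25A42 in non-tumor tissue, at 1.31, as the exception above 1.

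The genes that work with the mitochondrial ribosome were described by the same test. Of 10 measured translation factors, among them TUFM, the elongation factor that brings tRNA to the ribosome, 0 passed and the median log2 fold change was −0.064. Of 13 measured assembly factors 0 passed, with a median of 0.16, and of 11 mitochondrial aminoacyl-tRNA synthetases 0 passed, with a median of 0.012 (edgeR with any fold; at an unadjusted p under 0.05 LARS2 was the one gene of these lists). With the replicate block 2 translation factors passed (1 higher, 1 lower), 6 assembly factors (5 higher, 1 lower) and 3 synthetases (3 higher). Of all genes 64.1% passed with the block and 13.9% without it. LARS2, which charges the leucine tRNA, came closest, with 66.3 and 74.6 CPM in carcinoma, against 47.2 and 48.2 CPM in non-tumor tissue (log2 fold change 0.56, standard error 0.13, adjusted p = 0.0530). The 13 mitochondrially encoded protein genes, the messages the ribosome reads, were added after their values had been seen. They summed to 19443 and 10564 CPM in carcinoma and to 25637 and 12112 CPM in non-tumor tissue. Their median log2 fold change was −0.33 and 0 passed by edgeR (0 also at an unadjusted p under 0.05), with a median standard error of 0.54. With the replicate block 12 of the 13 passed, 9 as lower and 3 as higher, against 64.1% of all genes passing in that fit. Lower in both pools were 7 of the 13, and 84.5% of all genes had the same sign in both pools. The pools set these values apart more than the tissues did.

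Regulators of mitochondrial gene expression included the called gene of these lists. PPARGC1B, a coactivator of nuclear receptors that promotes mitochondrial biogenesis, had 64.6 and 93.1 CPM in carcinoma, against 19.0 and 27.4 CPM in non-tumor tissue. It rose by 1.78 on the log2 scale (standard error 0.28, adjusted p = 0.0165). ESRRG, an orphan nuclear receptor that such coactivators bind, rose by 0.54 (standard error 0.11, adjusted p = 0.0366), with 226 and 211 CPM in carcinoma and 147 and 154 CPM in non-tumor tissue. PPARGC1A, the better known coactivator of the family, had 45.2 and 41.9 CPM in carcinoma and 46.9 and 44.7 CPM in non-tumor tissue (95% interval of the log2 fold change −0.43 to 0.29). NRF1, a transcription factor known to bind promoters of many nuclear genes for mitochondrial proteins, had 164 and 162 CPM in carcinoma and 168 and 151 CPM in non-tumor tissue (95% interval −0.26 to 0.32). TFAM, which packages and transcribes mitochondrial DNA, had 14.2 and 13.1 CPM in carcinoma, against 19.0 and 18.8 CPM in non-tumor tissue, without overlap (log2 fold change −0.47, adjusted p = 0.226). Of the 13 measured genes of this list, 2 passed as higher and the other 11 did not pass, against 13.9% of all genes passing (6.93% higher). With the replicate block 4 passed as higher and 2 as lower, against 64.1% of all genes passing.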

How the data were processed

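The deposited tables hold whole-number counts per gene and a length per gene. The authors' methods name TopHat2 and HTSeq with default settings, whereas FastQC, STAR, featureCounts and DESeq2 stand in the submitters' processing notes. The methods give a version for DESeq2 but none for the aligner or counter, and the genome build is given only as the dog reference genome. The sources conflict on the counter, so the strand setting is uncertain and reads of overlapping genes cannot be assigned with certainty. The deposited length (an other, non-measured column) had a median ratio of 0.992 to the RefSeq gene span of 78 matched members (46 within 20%). Of these spans 29 overlap another RefSeq gene (UU_Cfam_GSD_1.0 table, used for names, spans and overlaps), and 9 overlap a gene that was counted here. Among the 9 are SLC25A26 (LRIG1) and SLC25A40 (RUNDC3B). SLC25A13 overlaps LOC106559687, which has no counts here. Whether reads in introns were counted is not stated.

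Totals were 35496260 counts in T1, 3236218 in T2, 32352002 in C1 and 4027367 in C2, with 79475, 7913, 68665 and 9858 counts in the members. The lowest member count was 16 (MRPL32 in T2), and all 80 members passed filterByExpr. All genes were fitted in R 4.3.3 with edgeR 4.0.16 (TMM, quasi-likelihood test, no block). DESeq2 1.42.0 was an alternative. Standard errors are the absolute log2 fold change over the square root of F. Log2 ratios within pools used a prior count of 2. Replicates differed beyond counting error (chi-square per degree of freedom 31.7 between carcinoma libraries, 46.0 between non-tumor libraries). The study describes the pooled non-tumor samples as paired with the tumors and groups C1 with T1 and C2 with T2, so the pool number pairs the libraries. The pool 2 minus pool 1 offsets of both tissues had a correlation of 0.782 over genes. Adding the pool as a block changed the common dispersion to 0.00216, against 0.0508 without it. The replicates are pools of dogs, so p-values without the block measure the spread between pools. Those with the block rest on how far the tissue difference varied between the 2 pools.

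The members to be named were any called member, in each class the 10 with the smallest p, the 4 with the highest mean CPM and the 3 largest rises and falls, and the ADP/ATP and phosphate carriers. Alternatives were DESeq2, RLE factors, TMM without the 10 most abundant features, no filter, at least 10 counts in every library, each library left out, and the block. A further few were named after their values were seen (MRPL28, SLC25A1, SLC25A11, SLC25A15, SLC25A21, SLC25A23, SLC25A24, SLC25A25, SLC25A37, SLC25A38, SLC25A42, MRPL27 and MRPL51). Members and lists were chosen with earlier results of these data known. Of 48 carrier and 78 ribosomal protein names listed by role, 31 and 49 had a row, and the others were not analysed here. Planned promoter and protein descriptions were not run, and no sequence was used here.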

Additional observations from a re-analysis of the deposited data

How the results depend on the processing

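SLC25A13 passed under all 10 alternatives (DESeq2, other scalings, other filters, each library left out, the block), with log2 fold changes from 0.88 to 1.02 and adjusted p from 4.03e-34 to 0.0324. Leaving out each library in turn gave 0 to 1 carriers called higher, the 1 being SLC25A13 at 1.02 without T2, and a carrier median from −0.0075 (without C1) to 0.31 (without C2). The ribosomal median ran from −0.14 (without C1) to −0.054 (without T2), and was −0.064 with DESeq2, −0.063 with RLE scaling, −0.090 without the 10 most abundant features and −0.032 with the replicate block. The other scalings shifted the median of all genes by less than 0.1. With the replicate block, 13 carriers passed as higher and 5 as lower and 4 ribosomal proteins as higher and 10 as lower, at any fold, and 23 of the 29 members chosen by the naming rule passed that had not. It changed no count of members called at a log2 fold change of at least 1. The fits that leave an arm with 1 library take its spread from the other arm. With single libraries left out, the estimate ran from −0.17 to 0.056 (without C1) for MRPL1, from −0.16 to 0.043 (without T2) for MRPS28, from −0.0075 (without C1) to 0.19 for SLC25A5 and from −0.81 (without T2, and −0.32 without C1) to 0.87 for SLC25A6. The signs at the settings in brackets are opposite to those with all libraries, and the cause was not tested. The other members chosen by the naming rule kept their sign under each alternative. Members named after their values were seen were not followed through the alternatives, but with the replicate block SLC25A15 was at 0.13 and MRPL28 at 0.11, against −0.0097 and −0.048 without it. The spread between libraries exceeded counting error, and how far the lower depth of T2 and C2 limits the comparisons was not tested.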

Other observations

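Import machinery and mitochondrial transporters outside the carrier family gave 1 further gene past the test. SFXN1, a mitochondrial serine transporter of another family, had 89.0 and 88.3 CPM in carcinoma, against 54.3 and 47.3 CPM in non-tumor tissue. It rose by 0.80 on the log2 scale (standard error 0.13, adjusted p = 0.0178 by edgeR), and it was higher in 2 of 2 carcinoma libraries. SFXN1 was the one of 9 measured genes of its list to pass, and the list's median log2 fold change was 0.20. With the replicate block 5 genes of the list passed as higher and 2 as lower. Of all genes 13.9% passed with any fold, and 64.1% with the block. Of 15 measured protein import genes 0 passed by edgeR with any fold (1 at an unadjusted p under 0.05), and the median was 0.045. With the block 2 passed as higher and 1 as lower. The gene with the unadjusted p under 0.05 was TIMM22, which encodes the core of the translocase that inserts carriers into the inner membrane. It had 49.5 and 55.3 CPM in carcinoma, against 37.4 and 38.0 CPM in non-tumor tissue, without overlap (log2 fold change 0.47, standard error 0.14, adjusted p = 0.106).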
